A study of Homo sapiens with 4 samples.

Results

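The 10 genes described here are the lung lineage factors NKX2-1, FOXA1 and FOXA2, the surfactant protein genes SFTPA1, SFTPA2, SFTPB, SFTPC and SFTPD, and the secretory markers NAPSA and SCGB1A1. They were chosen by name, with earlier results of these data known, and all 10 were found among the 60558 gene identifiers of each library. RNA came from A549 and HCC827 cells, which are established human LAD (lung adenocarcinoma) cell lines. Each line had been transduced either with myr-AKT1, a constitutively active AKT1 kinase that a myristoylation signal anchors to the membrane, or with the empty vector. This gave 4 groups of 1 library each (A549-vector and A549-myr-AKT1, then HCC827-vector and HCC827-myr-AKT1), with no treatment beyond the transduced construct. The sources used here do not say whether the transduced cells were clones or pools, which promoter drove the kinase, or how long it had been expressed.

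NKX2-1 (also called TTF-1) is a homeodomain transcription factor that specifies the lung from the foregut and, in the adult lung, is expressed by alveolar type 2 cells and airway club cells. FOXA1 and FOXA2 are forkhead pioneer factors of endoderm-derived epithelia and act with NKX2-1 on the genes of lung secretory products. Type 2 cells make surfactant, the lipid and protein film that keeps alveoli open: SFTPB and SFTPC encode small hydrophobic proteins that spread the lipid, and SFTPA1, SFTPA2 and SFTPD encode collectins of innate defence. NAPSA encodes napsin A, an aspartic protease that processes surfactant precursors and serves, with TTF-1, as a diagnostic marker of LAD, whereas SCGB1A1 is the secreted product that defines club cells.

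Each deposited value is a count of reads over a size factor of its library, and the reads themselves were recovered. The libraries held 16322183 to 33530317 reads, and a count of 0 was given a floor of 3 reads. Because each condition has 1 library, differences inside a line lack a replicate check. Log2 fold changes are ratios of normalised read counts, with 95% Clopper-Pearson intervals that cover counting error only. A gene with at least 20 reads over a pair of libraries was called when its log2 fold change lay above 1 or below -1. AKT1 itself gave log2 fold changes of 0.57 in A549 and 1.14 in HCC827, both higher in the library labelled myr-AKT1. The epithelial keratins KRT7, KRT8, KRT18 and KRT19 had at least 380 reads in every library. Some non-epithelial markers were also present, among them collagen COL1A1 with 56 to 668 reads and smooth muscle actin ACTA2 with 40 to 602. The collagen gene COL1A2 of the same list had no read in any library. Bulk RNA cannot tell fewer cells that express a gene from less RNA per cell.

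The 10 genes were expressed very differently in the 2 lines. Levels between genes are given as TPM, which is reads per exon length scaled to the same sum over genes in each library. A percentile is the share of protein-coding genes with reads in that library that lay below. In HCC827-vector, NAPSA was the highest of the 10 at 182 TPM (percentile 95.3), followed by NKX2-1 at 90.8 (88.6) and FOXA1 at 44.7 (74.4). Below them lay FOXA2 at 9.60 (38.8), SFTPA2 at 3.37 (26.4) and SFTPB at 1.47 (20.5). These levels place both diagnostic markers of LAD among the more abundant messages of HCC827, and the surfactant proteins among the rarer ones. In A549-vector, FOXA2 led at 43.8 (percentile 78), ahead of FOXA1 at 12.8 (48.5) and NAPSA at 1.48 (23.5), and NKX2-1 had no read. SFTPC had 0 reads in all 4 libraries, which allows up to 3 reads in each, or 0.104 to 0.225 TPM. SCGB1A1 had 1 read in HCC827-myr-AKT1 and none in the other libraries. Among the 10 genes, the lung markers NKX2-1 and NAPSA were thus abundant in HCC827. In A549, NKX2-1 had 0 and 8 reads and NAPSA 30 to 48, beside FOXA1 and FOXA2, which do not mark lung alone. Other markers of type 2 cells, given below, differed between the lines in both directions. The defining type 2 marker SFTPC and the club cell marker SCGB1A1 were at or near 0 in both lines.

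**Figure D1:**
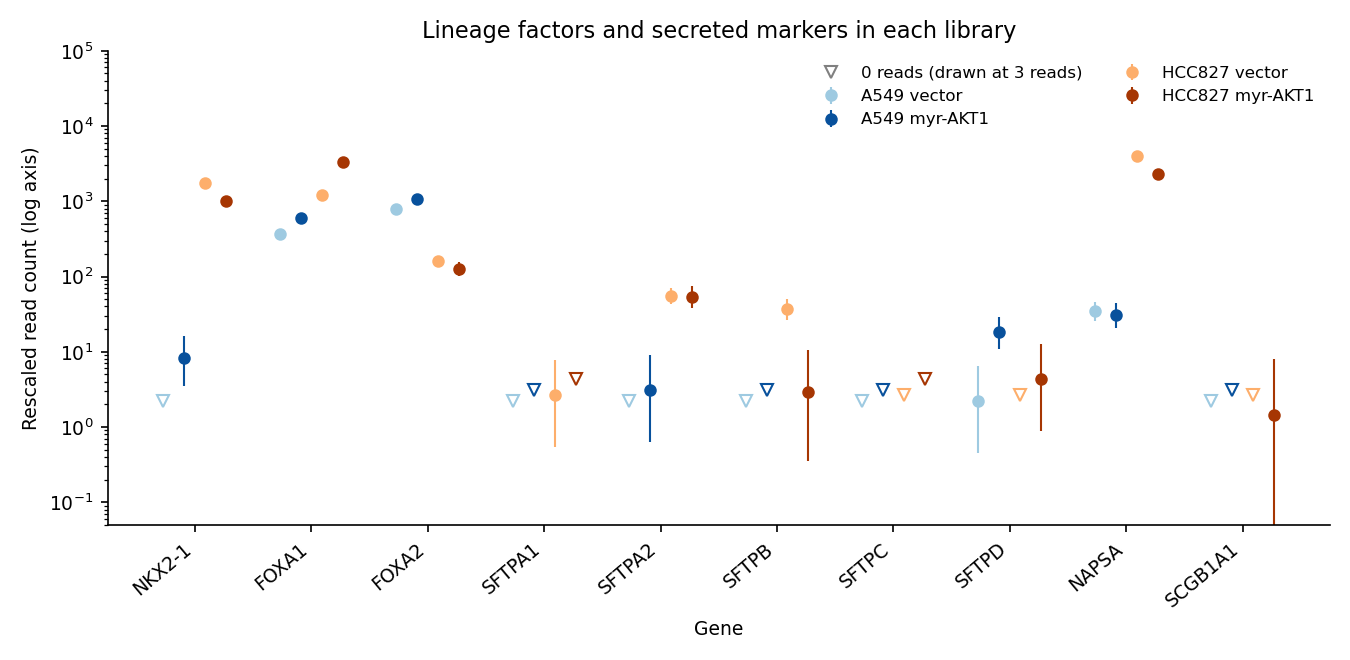
Read counts of the 10 genes in each library, rescaled to a common depth over the 4 libraries, on a log axis. Points are single libraries, bars are 95% exact Poisson counting intervals, and open triangles mark 0 reads, drawn at the value of 3 reads; the bar of SCGB1A1 runs below the axis. NKX2-1 and NAPSA are high in both HCC827 libraries and low or at 0 in A549, while FOXA2 has the opposite order.

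NKX2-1 (ENSG00000136352, chr14:36516392-36521149, minus strand, GRCh38) had 1993 reads in HCC827-vector and 702 in HCC827-myr-AKT1, which are 1583.9 and 883.3 normalised read counts. Its level was thus 1.79-fold lower in HCC827-myr-AKT1, with a log2 fold change of -0.84 (interval -0.97 to -0.72), short of the call. In A549 it had 0 reads with vector and 8 with myr-AKT1. Set against the floor of 3 reads, NKX2-1 was 3.50-fold higher in A549-myr-AKT1 (log2 fold change 1.81, lower limit 1.16). With 8 reads over the pair it was not among the genes tested. Even with those 8 reads, its rescaled count in A549-myr-AKT1 was 124-fold below that in HCC827-myr-AKT1.

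Part of the NKX2-1 locus is shared with other annotated transcripts. Of its 3165 exon bases, 1033 (32.6%) lie in exons of the same-strand readthrough gene ENSG00000257520, which had 10 reads in HCC827-vector and 2 in HCC827-myr-AKT1. A further overlap of 402 bases is with the antisense lncRNA NKX2-1-AS1, with 53 and 26 reads in the same libraries. The libraries were made with a stranded kit, but the strand setting of the counting was not given in the sources used here. How reads in the shared bases were assigned was not tested.

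NKX2-1 and FOXA1 lie on chromosome 14 with 1075 kb between their starts, and the genes between and beside them lay on both sides of 0 in HCC827. MBIP, which encodes an inhibitory partner of a MAP kinase and starts at -200.5 kb from NKX2-1, had 1124 reads with vector and 367 with myr-AKT1, a log2 fold change of -0.95 (-1.13 to -0.78). The lncRNA SFTA3 next to NKX2-1 gave -0.59 (-0.87 to -0.32). NKX2-8, a homeobox relative of NKX2-1, gave -0.99 (-1.77 to -0.26), and MIPOL1 gave -0.92 (-1.09 to -0.75). None of these passed the fold threshold, although each interval lay below 0. PAX9, a paired-box factor of the foregut between NKX2-8 and MIPOL1, had a log2 fold change of 0.33 (0.19 to 0.46). At the FOXA1 end, FOXA1 (1.39) and TTC6 (1.25, interval 1.04 to 1.46), which starts within FOXA1 on the other strand and shares 16 exon bases with it, were both called higher. In A549, NKX2-8 was called lower with 57 reads in vector and 15 in myr-AKT1 cells, a log2 fold change of -1.53 (-2.46 to -0.69). MBIP in A549 gave 0.07 (-0.09 to 0.23).

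**Figure D2:**
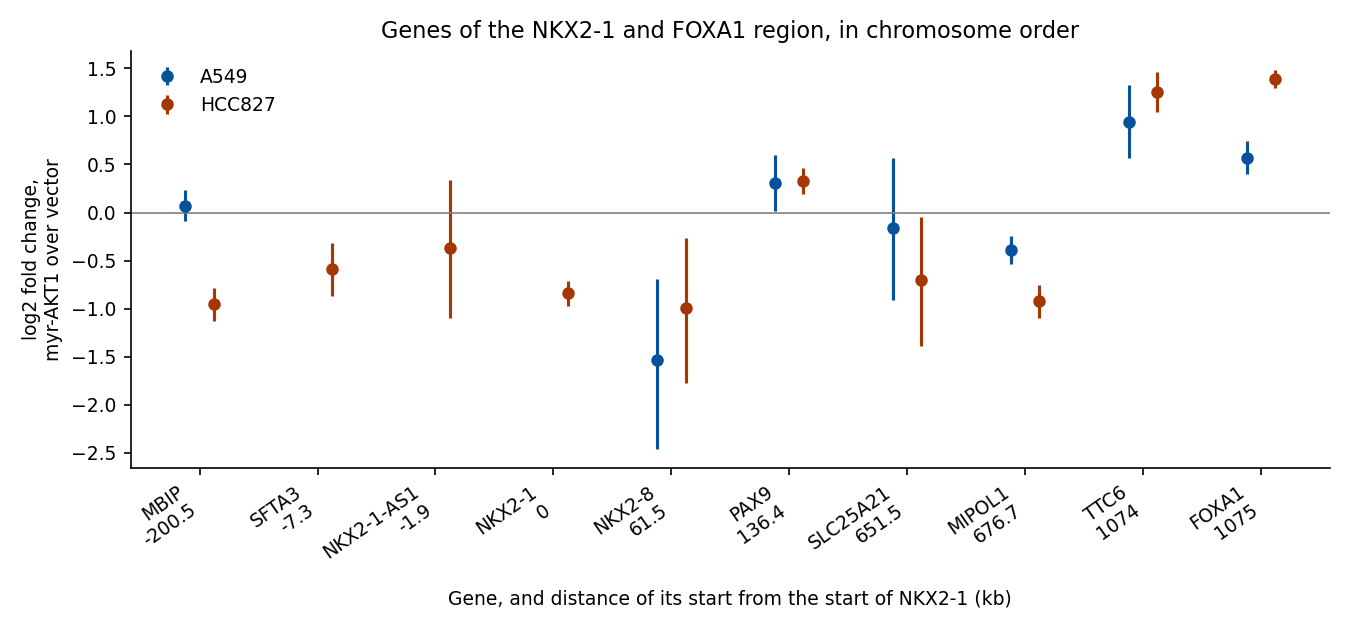
Log2 fold change of myr-AKT1 over vector for the genes of the NKX2-1 and FOXA1 region, in chromosome order with the distance of each start from that of NKX2-1 in kb. Points are single pairs of libraries and bars 95% Clopper-Pearson counting intervals; genes with no read, and NKX2-1 with 0 reads in A549-vector, have no point for A549. In HCC827, points from MBIP to NKX2-8 lie below 0 and those of TTC6 and FOXA1 above 1.

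FOXA1 (ENSG00000129514, chr14:37589552-37596059, minus strand) was the one member, of the 3 that could be tested in both lines, that was higher with myr-AKT1 in each. In A549 it had 510 reads with vector and 578 with myr-AKT1, or 445.4 and 661.9 normalised read counts. The log2 fold change of 0.57 (0.40 to 0.75) did not reach the call. In HCC827, FOXA1 had 1368 reads with vector and 2262 with myr-AKT1, or 1087.2 and 2846.3 normalised read counts. Here it was called, 2.62-fold higher with myr-AKT1 (log2 fold change 1.39, interval 1.29 to 1.49), and its percentile among protein-coding genes went from 74.4 to 92.3. The A549 fold change lay below that in HCC827 by 0.82 on the log2 scale (0.62 to 1.02, counting error only). In limma over both lines, FOXA1 gave an increase of 0.98 (SE 0.31) on the log2(value + 1) scale with a Benjamini-Hochberg adjusted p of 0.148, so that over the 2 lines as replicates it did not pass.

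FOXA2 (ENSG00000125798, chr20:22580998-22585455, minus strand) had the reverse order between the lines. In A549 it had 1080 reads with vector and 1058 with myr-AKT1, or 943.1 and 1211.5 normalised read counts, a log2 fold change of 0.36 (0.24 to 0.48). In HCC827, FOXA2 had 181 and 88 reads, or 143.8 and 110.7 normalised read counts, a log2 fold change of -0.38. Its interval of -0.76 to -0.0022 ended next to 0, and it included 0 when the libraries were scaled by total counts (-0.68 to 0.078). Neither fold change was called. The 2 fold changes differed by 0.74 (0.34 to 1.14, counting error only), and limma over both lines gave -0.0067 (SE 0.357, adjusted p = 0.996). LINC00261, the lncRNA beside FOXA2, had 160 reads with vector and 77 with myr-AKT1 in A549, a log2 fold change of -0.66 (-1.08 to -0.26). In HCC827 it had 15 and 5 reads, a log2 fold change of -0.92 whose interval included 0 (-2.74 to 0.61).

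**Figure D3:**
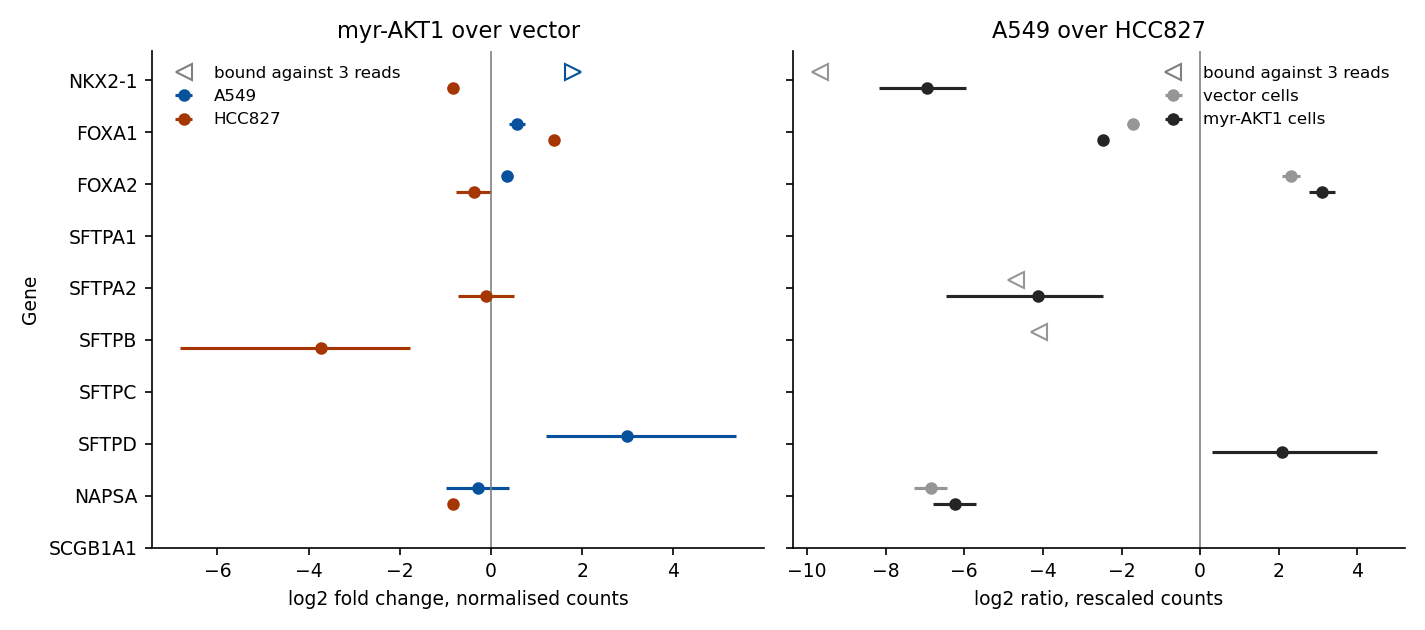
Log2 ratios of the 10 genes, on the left for myr-AKT1 over vector in each line and on the right for A549 over HCC827 in each condition. Points are single pairs of libraries and bars are 95% Clopper-Pearson counting intervals. Open triangles are ratios with a count of 0 set to 3 reads, and genes with no ratio have no mark. On the left FOXA1 lies above 0 in both lines and SFTPB far below 0 in HCC827; on the right FOXA2 lies above 0 and FOXA1, NKX2-1 and NAPSA below 0 in both conditions.

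Because NKX2-1 and the FOXA factors act on surfactant genes, the bases upstream of the members were searched for their short recognition words. RefSeq windows on GRCh38.p14 of 250 bases before the start were found for 7 of the 10 genes, and none for FOXA2, SFTPC and SCGB1A1. The words were CTCAAG and CAAGTG for NKX2-1, which overlap where they run together, and for FOXA they were TGTTTAC or alternatively TGTTTGC, and likewise TATTTAC or alternatively TATTTGC, all searched on both strands. Of 35116 windows of this length in RefSeq, 18.3% held an NKX2-1 word and 10.6% a FOXA word. The windows of both factor genes on chromosome 14 and of the 3 surfactant genes below are shown because they carry or lack the words, each 5′ to 3′ on the strand of its gene and without bases that an annotated exon covers. Capitals mark a word or its reverse complement.
NKX2-1, chr14:36520287-36520482, minus strand: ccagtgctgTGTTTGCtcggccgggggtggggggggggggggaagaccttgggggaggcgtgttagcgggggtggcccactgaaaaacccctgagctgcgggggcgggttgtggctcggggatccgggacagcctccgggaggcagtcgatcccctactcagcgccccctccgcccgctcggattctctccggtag
FOXA1, chr14:37595349-37595499, minus strand: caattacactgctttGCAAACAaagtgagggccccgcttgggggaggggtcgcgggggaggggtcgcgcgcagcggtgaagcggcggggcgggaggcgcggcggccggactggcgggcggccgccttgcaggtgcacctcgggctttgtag
SFTPA1, chr10:79610689-79610938, plus strand: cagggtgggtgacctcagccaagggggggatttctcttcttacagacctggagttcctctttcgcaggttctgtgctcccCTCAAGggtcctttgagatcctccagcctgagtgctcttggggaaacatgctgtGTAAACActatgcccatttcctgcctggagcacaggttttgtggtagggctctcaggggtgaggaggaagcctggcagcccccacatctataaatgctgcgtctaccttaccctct
SFTPA2, chr10:79560408-79560657, minus strand: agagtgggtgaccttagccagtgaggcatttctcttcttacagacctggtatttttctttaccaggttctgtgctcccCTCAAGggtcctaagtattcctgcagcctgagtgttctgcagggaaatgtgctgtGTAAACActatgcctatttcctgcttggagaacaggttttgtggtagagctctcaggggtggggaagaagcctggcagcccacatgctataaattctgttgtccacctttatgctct
SFTPB, chr2:85668252-85668449, minus strand: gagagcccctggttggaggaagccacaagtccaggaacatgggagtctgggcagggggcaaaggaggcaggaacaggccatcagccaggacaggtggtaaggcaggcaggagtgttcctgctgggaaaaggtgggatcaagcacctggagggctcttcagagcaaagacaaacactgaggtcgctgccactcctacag

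The upstream windows of SFTPA1 and SFTPA2 were near copies, with 214 of 255 aligned columns identical (83.9%). Both held CTCAAG, at -170 to -165 in SFTPA1 and at -172 to -167 in SFTPA2 counted from the RefSeq start. Downstream of it, both held TGTTTAC on the opposite strand, at -116 to -110 and at -117 to -111. NKX2-1 held TGTTTGC at -241 to -235. These positions are for the start nearest to the canonical GENCODE start, at which the NAPSA window held neither set of words. At further RefSeq starts, NKX2-1 held CAAGTG and TGTTTAC (676 bases away) and NAPSA held CTCAAG on the opposite strand (3663 bases away). FOXA1 held TGTTTGC on the opposite strand at -235 to -229, and its 2 NKX2-1 words, CTCAAG at -46 to -41 and CAAGTG on the opposite strand at -12 to -7, lie in exon bases that are not shown. Neither set of words was found in the window of SFTPB or in that of SFTPD. A match of letters is not a bound site, and the lack of one says nothing of the factor.

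The surfactant protein genes had few reads in either line. SFTPA2 (ENSG00000185303, chr10:79555852-79560407, minus strand) had 63 reads in HCC827-vector and 37 in HCC827-myr-AKT1, or 50.1 and 46.6 normalised read counts. Its log2 fold change of -0.10 (-0.73 to 0.50) was within counting error. In A549 it had 0 reads with vector and 3 with myr-AKT1, both at or under the floor, so no fold is given. SFTPA1 (ENSG00000122852, chr10:79610939-79615455, plus strand), the near copy of SFTPA2, had 3 reads in HCC827-vector and none elsewhere. Its window holds the same words in the same order, and a link between words and reads was not tested. Of the 50-base words of the SFTPA2 transcript, 19.3% also occur in SFTPA1, so that some reads of this pair could be assigned to either gene.

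SFTPB (ENSG00000168878, chr2:85657314-85668741, minus strand), which encodes the hydrophobic protein that surfactant cannot function without, was the only surfactant gene called lower. It had 42 reads in HCC827-vector and 2 in HCC827-myr-AKT1, or 33.4 and 2.52 normalised read counts. The ratio was 13.3-fold, with a log2 fold change of -3.73 whose interval ran from -6.82 to -1.79. In A549 SFTPB had 0 reads in both libraries. SFTPD (ENSG00000133661, chr10:79937467-79982614, minus strand) was called higher in A549, with 3 reads in vector and 18 in myr-AKT1 cells. The log2 fold change was 2.98 (1.20 to 5.38). In HCC827 it had 0 reads with vector and 3 with myr-AKT1, as many as an antisense lncRNA that shares 78 of its exon bases. Both called surfactant genes rested on fewer than 50 reads and on 1 library a side.

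NAPSA (ENSG00000131400, chr19:50358472-50365830, minus strand) had 4520 reads in HCC827-vector and 1597 in HCC827-myr-AKT1, or 3592.1 and 2009.5 normalised read counts. Its level was 1.79-fold lower in HCC827-myr-AKT1, with a log2 fold change of -0.84 (-0.92 to -0.76), short of the call and of the same size as that of NKX2-1. In A549 it had 48 and 30 reads, for a log2 fold change of -0.29 (-0.996 to 0.40). The difference between the 2 fold changes, 0.55, had an interval that included 0 (-0.16 to 1.24). Of its 3586 exon bases, 1182 (33.0%) lie opposite exons of NR1H2, the liver X receptor beta gene, which had 2190 reads in A549-vector and 1782 in A549-myr-AKT1. The part of NR1H2 reads in the low NAPSA counts of A549 was not tested.

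Counted together, 4 of the 10 genes could be tested in A549 and 1 of them, SFTPD, was called higher, where 14.7% of 18819 tested genes were called higher and 10.2% lower. In HCC827, 6 of the 10 could be tested, with FOXA1 called higher and SFTPB lower, where 13.5% of 17470 genes were called higher and 13.2% lower. SFTPD and SFTPB passed the filter on reads only through the library in which each was high, so these counts are a description and support nothing about the 10 genes. In limma with the cell line as a block and 1 residual degree of freedom, none of the 5 genes tested passed an adjusted p of 0.05, where 1.22% of 18930 genes were called higher and 1.74% lower with myr-AKT1. FOXA1 alone had an unadjusted p under 0.05 (0.0137), and edgeR and DESeq2 also called none of the 10.

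For NKX2-1, FOXA1, FOXA2, SFTPA2 and NAPSA, the ratio between the lines was larger than that between the 2 conditions of HCC827, all taken from the same 4 libraries. After rescaling, and with 0 reads set to the floor of 3, NKX2-1 was 806-fold higher in HCC827-vector than in A549-vector (1761.4 rescaled counts against 0). On the same footing, SFTPA2 was 25.5-fold and SFTPB 17.0-fold higher. Upper limits of these log2 ratios of A549 to HCC827 were -9.35, -4.33 and -3.72. NAPSA was 114-fold higher in HCC827-vector, with a log2 ratio of A549 to HCC827 of -6.84 (-7.28 to -6.43). FOXA1 was 3.25-fold higher in HCC827-vector, while FOXA2 was 4.92-fold higher in A549-vector. FOXA1, FOXA2 and NAPSA passed the filter on reads through each line alone, and in both conditions FOXA2 was called higher and the other two lower in A549. Over all genes, 21.7% of 19237 were called higher and 19.7% lower in A549-vector, and 24.6% and 19.6% of 18480 in A549-myr-AKT1. NKX2-1, SFTPA2 and SFTPB in vector cells, and NKX2-1, SFTPA2 and SFTPD in myr-AKT1 cells, passed only through the line in which they were high, so their calls are a description. SFTPD was the 1 of these that was higher in A549-myr-AKT1, with 18 reads against 3 in HCC827-myr-AKT1.

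With both conditions of a line taken as its repeats, limma called 5 of the 6 genes tested, where 15.2% of 18843 genes were called higher and 13.5% lower in A549. NKX2-1, SFTPA2 and SFTPB passed the filter on the mean only through HCC827. The repeats are not cultures of 1 condition, and the fit had 1 residual degree of freedom. On the log2(value + 1) scale, A549 minus HCC827 was -8.79 (SE 0.94, adjusted p = 0.00136) for NKX2-1 and -6.49 (SE 0.34, adjusted p = 2.14e-04) for NAPSA. The difference was -2.08 for FOXA1 (SE 0.30, adjusted p = 0.00403) and 2.69 for FOXA2 (SE 0.35, adjusted p = 0.00285), so the 2 forkhead factors differed between the lines in opposite directions. The call of FOXA1 was lost without the condition as a block (adjusted p = 0.083). SFTPA2 was lower in A549 (adjusted p = 0.00896), and SFTPB missed the threshold (adjusted p = 0.0577).

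Other genes of the alveolar program were called in both directions. Of 14 genes for surfactant processing and type 2 cells, 8 could be tested in A549 with 6 called higher and none lower, and 9 in HCC827 with 3 higher and 1 lower, with medians of 1.20 and 0.89. Over all tested genes, 14.7% were called higher and 10.2% lower in A549, and 13.5% and 13.2% in HCC827, with medians of -0.04 and -0.05; the counts of the lists below stand beside the same shares. MUC1, a transmembrane mucin, gave log2 fold changes of 2.67 in A549 and 2.41 in HCC827 and passed in limma (2.51, SE 0.40, adjusted p = 0.0229). LAMP3, a lamellar body membrane protein, was also called higher in both lines, at 1.52 and 2.66. SLC34A2, the phosphate transporter of type 2 cells, had 45 reads in HCC827-vector and 2534 in HCC827-myr-AKT1, a log2 fold change of 6.48 (6.05 to 6.94), but 3 and 1 reads in A549. LPCAT1, which makes the saturated phospholipid of surfactant, was called higher in A549 (1.06) and lower in HCC827 (-1.37). ABCA3, the lipid importer of lamellar bodies, gave 0.12 and 0.90 and was called in neither line. SFTA2, a surfactant-associated secreted protein, had 0 reads in A549, and 1560 and 1048 reads in HCC827 with a log2 fold change of 0.09 (-0.03 to 0.20). SLC34A2 and SFTPB, both markers of the same cell type, therefore lay on opposite sides of 0 in HCC827. In A549-vector against HCC827-vector, 3 of 11 tested genes of the type 2 list were called higher and 8 lower. Over all genes, 21.7% and 19.7% were. The 3 were LRRK2 (4311 reads in A549 and 8 in HCC827), HHIP (779 and 0) and ABCA3 (1244 and 159). LRRK2 and HHIP, among others, passed the filter on reads only through 1 line, so these counts are a description.

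Of 16 other lung transcription factors, 12 could be tested in each line, with 2 called higher and 1 lower in A549 and 2 higher and none lower in HCC827 (medians 0.45 and 0.03). The A549 count is at the share of all genes called there (14.7% higher and 10.2% lower), and that in HCC827 is set beside 13.5% and 13.2%. GATA6, a zinc finger factor that acts on surfactant genes with NKX2-1, was called in both lines at 1.56 and 1.72. SOX2, a factor of the proximal airway, gave 0.74 in A549 and was called in HCC827 at 2.05 (1.97 to 2.13). FOXA3, the third member of the FOXA family, was called higher in A549 with 69 reads in vector and 128 in myr-AKT1 cells. ELF3 and KLF5, factors of epithelial differentiation, had at least 2316 reads in every library and log2 fold changes of 0.30 to 0.42. GATA6 was thus the 1 gene of the list called in both lines, and the lowest adjusted p in limma was 0.0842, for SOX2.

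Markers of other cell types were measured beside these genes, and their part in the results was not tested. The shares of all tested genes called higher and lower were 14.7% and 10.2% in A549 and 13.5% and 13.2% in HCC827. Several genes of these lists passed the filter on reads only through the library in which they were high. In A549 these included BPIFA1, BPIFB1, CYP2B6 and CDH5, so the counts and medians below are a description. Of 9 type 1 cell markers, 2 of 6 tested were called higher and 3 lower in A549, and 3 of 5 lower in HCC827. RTKN2 was called lower in both lines and in limma (-2.67, adjusted p = 0.0235), while PDPN and CLDN18 had no read. Of 8 airway secretory markers, 4 had no read in A549 and 4 had none in HCC827. They were called higher in 4 of 4 tested in A549 (BPIFA1, BPIFB1, PIGR and CYP2B6). In HCC827, 2 of 3 tested were called higher (BPIFB1 and PIGR) and CYP2B6 was called lower. By contrast, the secretoglobins SCGB3A1 and SCGB3A2 had no read in any library, next to 1 read for SCGB1A1. Ciliated and basal markers were called higher in 3 of 5 tested in A549 and 3 of 6 in HCC827. Among them, the basal factor TP63 had 773 reads in A549-vector and 2587 in A549-myr-AKT1 (log2 fold change 2.13), while the basal keratin KRT14 had no read. Of 16 gastric, intestinal and hepatic markers, 5 of 9 tested were called higher in A549, with a median of 3.17, and 1 higher and 1 lower of 5 in HCC827. In A549, TTR (0 reads with vector and 110 with myr-AKT1), TFF1 (2 and 251) and ALB (2 and 60) passed the filter only through the myr-AKT1 library. HNF4A, a master factor of gut and liver epithelium, had 1786 reads in each A549 library and 0 in both HCC827 libraries, the opposite order to NKX2-1. Of 6 epithelial identity genes, 2 were called higher in A549 and 2 lower in HCC827. The 6 non-epithelial markers had summed rescaled counts of 387 in A549-vector, 1433 in A549-myr-AKT1, 165 in HCC827-vector and 531 in HCC827-myr-AKT1. Of these, 3 of 4 tested were called higher in A549 (COL1A1, PECAM1 and CDH5) and 2 of 3 in HCC827 (COL1A1 and ACTA2). COL1A1 passed in limma (2.64, adjusted p = 0.0341). COL1A2 had no read, and the leukocyte marker PTPRC had 0 to 7 reads.

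**Figure D4:**
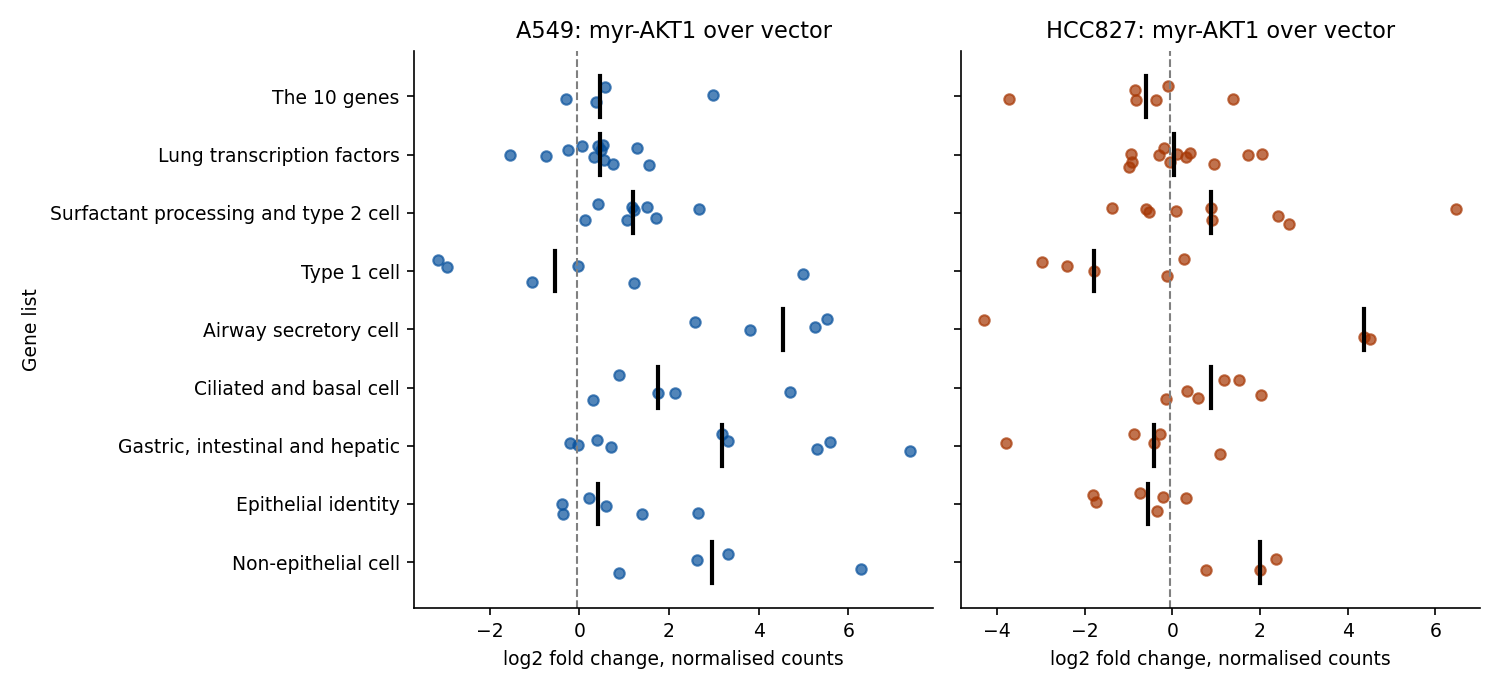
Log2 fold change of myr-AKT1 over vector for the tested genes of each list, in A549 on the left and in HCC827 on the right. Points are genes with at least 20 reads over the pair, with zero counts set to 3 reads, black bars are list medians and the dashed line is the median of all tested genes. Of the 10 genes, the 4 tested in A549 lie between -0.29 and 2.98 and the 6 tested in HCC827 between -3.73 and 1.39.

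The genes whose profile over the 4 libraries lay closest to those of the 3 factors were found among 12415 protein-coding genes with a mean rescaled count of at least 50, by the Euclidean distance of centred log2(rescaled count + 1). For NKX2-1 they were ADGRF1, an adhesion receptor (distance 0.81), RNF212 (1.02) and SLC43A3 (1.02), and no gene lay within 0.5. Close to FOXA1 lay TMEM106A (0.26) and GFPT1 (0.27), among 21 genes within 0.5. For FOXA2, they were AKAP7 (0.13), CYP2S1 (0.25) and IRS2 (0.27), among 34. The 4 points of each profile come from the same 4 libraries, so the distances are descriptions.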

How the data were processed

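RNA of vector-control and myr-AKT1-transduced A549 and HCC827 cells was sequenced as 4 strand-specific libraries, 1 per condition, which were grouped by their sample labels. The paper describes selection of polyadenylated RNA, while the labels name a kit that depletes rRNA. Reads were trimmed, then aligned to hg38 (Bowtie2) and summed over Ensembl genes (HTSeq) by the authors; the annotation release and the strand setting were not given in the sources used here. RPKM is the unit named in the Methods, whereas the deposited signal proved to be whole reads over a size factor, estimated within the 2 libraries of a line. Dividing by the worth of 1 read gave whole reads, within 0.001, for at least 99.996% of genes with reads in every library; these recovered counts gave totals of 25190760 and 33530317 reads in A549-myr-AKT1 and A549-vector and 16322183 and 27312465 in HCC827-myr-AKT1 and HCC827-vector. Reads are not independent molecules, so intervals and floors cover counting error only.

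Genes were named, measured and located by GENCODE release 44 on GRCh38, which matched 60261 identifiers. Within a line, ratios of deposited values were taken without a pseudocount; a library at 0 was set to 3 reads. TPM values in the text were computed from the recovered counts and GENCODE exon lengths. Between lines, counts were rescaled by median-of-ratios size factors over the 4 libraries. Limma was fitted to log2(value + 1) with a mean-variance trend for genes with a mean of at least 10, with the line or the condition as a block, and p-values were adjusted by the Benjamini-Hochberg method over all genes. Because the files hold normalised values, limma took the place of a count test; edgeR's quasi-likelihood test with TMM and DESeq2's Wald test on the recovered reads were alternatives, as were other scalings, pseudocounts, filters and thresholds. The fits were tested on simulated data. The authors' own comparisons were not used.

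The members and lists were chosen with earlier results of these data known. Named are the 10 genes, those called within both lines or highest in a list, those needed to say what moved in a list, and the 3 nearest profiles, of which 1 gene is not reported here. Statistics used limma 3.58.1, DESeq2 1.42.0 and edgeR 4.0.16 in R 4.3.3, and scipy 1.17.1, pandas 2.3.3, numpy 2.4.6 and matplotlib 3.10.9 in Python 3.11.15.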

Additional observations from a re-analysis of the deposited data

Results flagged for a closer look

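The log2 fold changes of NKX2-1 and FOXA2 had opposite signs in the 2 lines, and neither difference was tested over replicates, since each line has 1 library per condition. For NKX2-1 the value was 1.81 in A549, from 8 reads against a floor of 3 (lower limit 1.16), and -0.84 in HCC827. FOXA2 gave 0.36 in A549 and -0.38 in HCC827.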

How the results depend on the processing

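Over the alternatives run, the direction of every called member was kept. A mean value of at least 50 left 0 called members in A549 (SFTPD lost) and 1 in HCC827 (SFTPB lost), and a fold threshold of log2 2 left 1 in HCC827 (FOXA1 lost). Called genes were 4677 in A549 and 4660 in HCC827; they numbered 7442 and 7198 without the filter on reads, 2679 and 2691 with a mean of at least 50, and 1607 and 1358 at log2 2. Between lines they numbered 7951 in vector and 8181 in myr-AKT1 cells, and 4267 and 4262 at log2 2. With values as deposited, the median log2 ratio of A549 to HCC827 over all genes went from 0.02 to 0.43 in vector and from 0.04 to 0.40 in myr-AKT1 cells, and calls higher in A549 from 52.4% to 67.5% and from 55.7% to 69.2%; the 4-library scaling moved the A549 median from -0.04 to 0.06.

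For myr-AKT1 over both lines limma called 559 genes, DESeq2 1134, and limma 76 with a pseudocount of 0.1, 319 with 10, 1995 with at least 1 read in any library, 244 with size factors over all 4 libraries, 0 without the trend (2593 at an unadjusted p under 0.05) and 0 without the cell line block (625). With at least 1 read in any library, 1 member was called (FOXA1, adjusted p = 0.048). FOXA2, near 0 there, changed sign with adjusted p of 0.965 in edgeR, 0.969 in DESeq2, 0.998 with a pseudocount of 10 and 0.946 with size factors over all 4 libraries. For the line effect limma called 5415 genes, 3019 without the trend and 2654 without the condition block, where FOXA1 missed the threshold (adjusted p = 0.083); SFTPB passed in edgeR (0.0199), with a pseudocount of 0.1 (0.0406), with at least 1 read in any library (0.00307) and with total counts (0.0462). Fewer genes or samples per estimate apart, the cause was not tested.

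The labels carry no replicate numbers, so the libraries were paired only by cell line, which served as the block. Leaving out a library was not possible, since it leaves a group empty and no residual degree of freedom. At these depths, a gene with 3 reads or fewer in both libraries, as SFTPA1, SFTPC and SCGB1A1 had, allows no fold.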
